A study of Mus musculus with 32 samples.

Results

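The loci described here are those of Pck1, G6pc and Ppargc1a, 3 genes of hepatic glucose production. Their members are the intervals of 5 deposited mm9 lists whose centres lay in a window of 120 kb at Pck1 (chr2:172920000-173040000), of 130 kb at G6pc (chr11:101170000-101300000) or of 230 kb at Ppargc1a (chr5:51780000-52010000). The windows held 150 of the 180039 intervals in all, 58 at Pck1, 48 at G6pc and 44 at Ppargc1a. Of these, 21 were peaks of the glucocorticoid receptor (GR), 29 and 23 were C/EBPβ peaks of the dexamethasone and vehicle lists, and 40 and 37 were DNase I hypersensitive sites (DHS, intervals of accessible chromatin) of the dexamethasone and vehicle lists. The windows were set by gene and not by a threshold on a measured value, although earlier results of these data were known when the loci were chosen.

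The livers came from male C57BL/6 mice, 8 weeks old, that had undergone bilateral adrenalectomy. The dexamethasone group had received an intraperitoneal dose of 1 mg/kg of dexamethasone, a synthetic GR ligand carried by cyclodextrin, in 300 ul of saline, and the vehicle group had received cyclodextrin alone. Tissue was taken 1 h later. All animals of both groups lacked their adrenals and so their main source of corticosterone. Each of these groups had 2 DNase-seq, 2 C/EBPβ ChIP-seq and 2 GR ChIP-seq samples. Each assay and condition is represented by 1 list of positions, but the GR list carries no condition in its name. The series also holds adenovirus groups given dexamethasone, labelled adGFP and adDN-C/EBP, each with 2 GR ChIP-seq samples. Whether the GR list drew on these samples is not known. The lists have no height, count or replicate column, so the read depth is unknown, differences between the dexamethasone and vehicle lists have no replicate check, and an interval missing from a list may have fallen below the threshold of that list. Whole liver was used, so the cell type that carried an interval cannot be told. How many animals made up a sample is not given in the sources used here.

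Pck1 encodes the cytosolic phosphoenolpyruvate carboxykinase, which turns oxaloacetate into phosphoenolpyruvate and is a main control point of gluconeogenesis. G6pc encodes the catalytic subunit of glucose-6-phosphatase, which releases free glucose in the final step of both gluconeogenesis and glycogen breakdown. Ppargc1a encodes PGC-1α, a transcriptional coactivator induced in the fasted liver that raises the expression of gluconeogenic genes. Glucocorticoids sustain glucose output in fasting, GR is the nuclear receptor that binds them, and C/EBPβ is a leucine zipper factor of hepatocytes known to act at gluconeogenic promoters. In the gene order of the GRCm38.p6 annotation the protein-coding neighbours were Ctcfl and Zbp1 for Pck1, Aoc3 and Aarsd1 for G6pc, and Adgra3 and Dhx15 for Ppargc1a. Positions were not converted between builds, so the intervals are placed within the windows and not against a transcription start site.

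The proximal promoters of the genes are shown because promoter elements of these genes are classical subjects in the study of hormonal control of glucose output. The sequences are those of RefSeq in build GRCm38.p6 (3 of 3 genes matched by symbol), 250 bases long and ending just before the annotated start. They lie at chr2:173152823-173153072 (Pck1, plus strand), chr11:101367466-101367715 (G6pc, plus strand) and chr5:51567726-51567975 (Ppargc1a, minus strand), and these positions cannot be set beside the mm9 positions of the lists. Capitals mark matches to 5 motifs searched on both strands: ACANNNTGT (core of the GR palindrome), TGTTCT (1 arm of the GR palindrome), TTNCNNAA (C/EBP core), TGACG (1 arm of the cAMP response element) and TGTTTNC (core of the FOX motif).
Pck1: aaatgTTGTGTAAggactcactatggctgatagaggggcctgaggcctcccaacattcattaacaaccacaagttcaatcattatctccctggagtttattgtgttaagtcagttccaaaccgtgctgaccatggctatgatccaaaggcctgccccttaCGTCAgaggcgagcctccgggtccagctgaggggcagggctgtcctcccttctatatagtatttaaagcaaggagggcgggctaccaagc
G6pc: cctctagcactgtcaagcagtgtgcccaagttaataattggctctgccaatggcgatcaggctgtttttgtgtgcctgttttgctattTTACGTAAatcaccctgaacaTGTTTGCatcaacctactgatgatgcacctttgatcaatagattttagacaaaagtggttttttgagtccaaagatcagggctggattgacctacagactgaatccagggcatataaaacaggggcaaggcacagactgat
Ppargc1a: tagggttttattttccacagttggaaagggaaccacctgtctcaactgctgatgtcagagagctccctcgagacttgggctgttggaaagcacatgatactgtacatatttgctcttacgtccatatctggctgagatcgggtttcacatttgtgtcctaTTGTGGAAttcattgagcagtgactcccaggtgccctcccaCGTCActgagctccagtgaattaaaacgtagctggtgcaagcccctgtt
The C/EBP core matched once in each promoter, from 245 to 238 bases before the start of Pck1, from 162 to 155 bases before that of G6pc, and from 90 to 83 bases before that of Ppargc1a. It was present in 36.8% of the 32851 promoter stretches of this length in the table, so its presence is common. The motif TGACG matched once at Pck1 (90 to 86 bases before the start) and once at Ppargc1a (49 to 45 bases), against 17.8% of all promoters. The FOX core matched once, at G6pc (141 to 135 bases), and also in 17.8% of all promoters. No 2 of these matches overlapped one another. Neither GR motif had a match in the 3 stretches. The palindrome core was found in 5.84% and the single arm in 16.1% of all promoters.

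The Pck1 window was among the autosomal windows richest in GR and C/EBPβ peaks, the G6pc window was somewhat less rich, and the Ppargc1a window was nearer the rest. Pck1 held 9 GR peaks, or 7.50 per 100 kb, G6pc held 7 (5.38 per 100 kb) and Ppargc1a held 5 (2.17 per 100 kb). Adjoining windows of the same size over the 19 autosomes, leaving out those that touch the locus, had a median of 0 GR peaks at each size and means of 0.561 (120 kb), 0.608 (130 kb) and 1.08 (230 kb). At least as many GR peaks as at Pck1 were found in 81 of 20584 windows (0.394%). For G6pc the number was 239 of 18999 (1.26%), and for Ppargc1a 781 of 10732 (7.28%). Many windows held no vehicle DHS, and windows over assembly gaps or unmappable sequence were not left out. Among windows with at least 1 vehicle DHS, which were 60.3%, 61.7% and 72.3% of the windows of 120, 130 and 230 kb, the shares were 0.652%, 2.04% and 10.1%. Most GR peaks lay towards the middle of the windows. With windows of 0.5 of the size, the middle part held 8 GR peaks at Pck1, 7 at G6pc and 4 at Ppargc1a, and 0.117%, 0.239% and 4.17% of windows had at least as many.

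**Figure D1:**
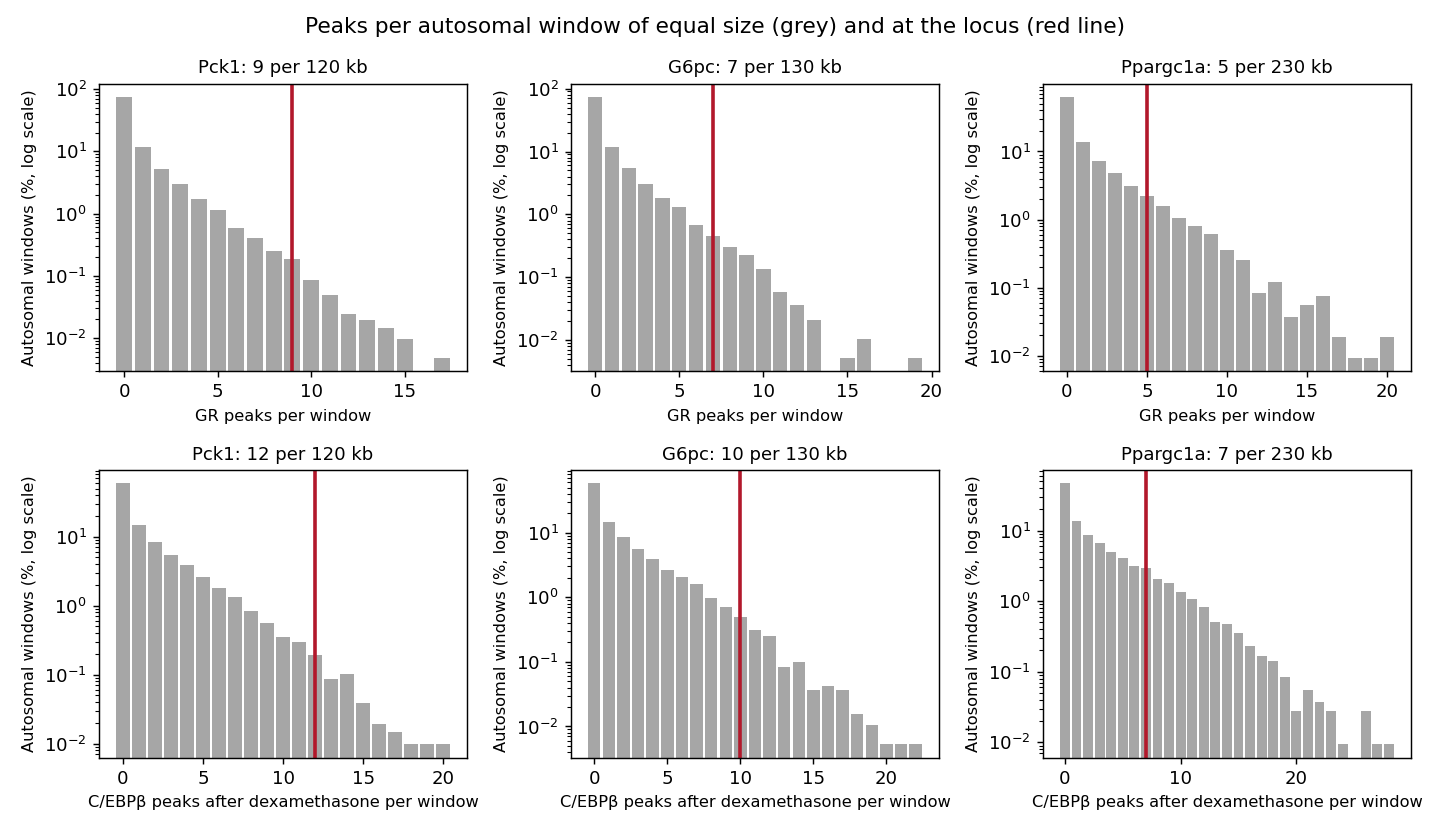
Percent of autosomal windows (y axis, log scale) that held each number of GR peaks (upper row) or of C/EBPβ peaks after dexamethasone (lower row), with windows as large as that of Pck1, G6pc or Ppargc1a from left to right. The red line marks the locus: 9, 7 and 5 GR peaks and 12, 10 and 7 C/EBPβ peaks, with the Pck1 and G6pc lines far in the right tail and the Ppargc1a line nearer the bulk.

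C/EBPβ peaks gave the same order of the loci after dexamethasone but not in the vehicle list. The Pck1 window had 12 C/EBPβ peaks in the dexamethasone list and 8 in the vehicle list, and 0.486% and 1.76% of windows had at least as many. The G6pc window had 10 in each list, with 1.40% of windows in the dexamethasone list and 0.847% in the vehicle list at or above it. Ppargc1a had 7 and 5, with 12.2% and 17.0%. Within windows holding a vehicle DHS these shares were 0.805% and 2.91% at Pck1, 2.27% and 1.37% at G6pc, and 16.9% and 23.5% at Ppargc1a.

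Accessible sites were dense at Pck1 and less so at the other loci. Pck1 held 16 DHS in the dexamethasone list and 13 in the vehicle list, and 1.03% and 2.06% of windows had at least as many. G6pc held 11 and 10 (7.48% and 7.48% of windows) and Ppargc1a 13 and 14 (16.1% and 10.9%). In windows with a vehicle DHS the shares were 1.71% and 3.42% at Pck1, 12.1% and 12.1% at G6pc, and 22.2% and 15.1% at Ppargc1a. The widths of the DHS of the Pck1 window summed to 15104 bp in the dexamethasone list and 9984 bp in the vehicle list, with mean widths of 944 and 768 bp. At G6pc the summed widths were 10038 and 8680 bp (mean widths 913 and 868 bp), and at Ppargc1a 10556 and 9916 bp (812 and 708 bp). At Ppargc1a a vehicle DHS of 150 bp overlapped its neighbour, so the bases they share are counted more than once. A GR peak lay in 18 of the 40 dexamethasone DHS of the loci, 9 of 16 at Pck1, 5 of 11 at G6pc and 4 of 13 at Ppargc1a, where the whole list had 16.7%. In the vehicle list GR lay in 16 of 37 DHS (background 15.4%).

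**Figure D2:**
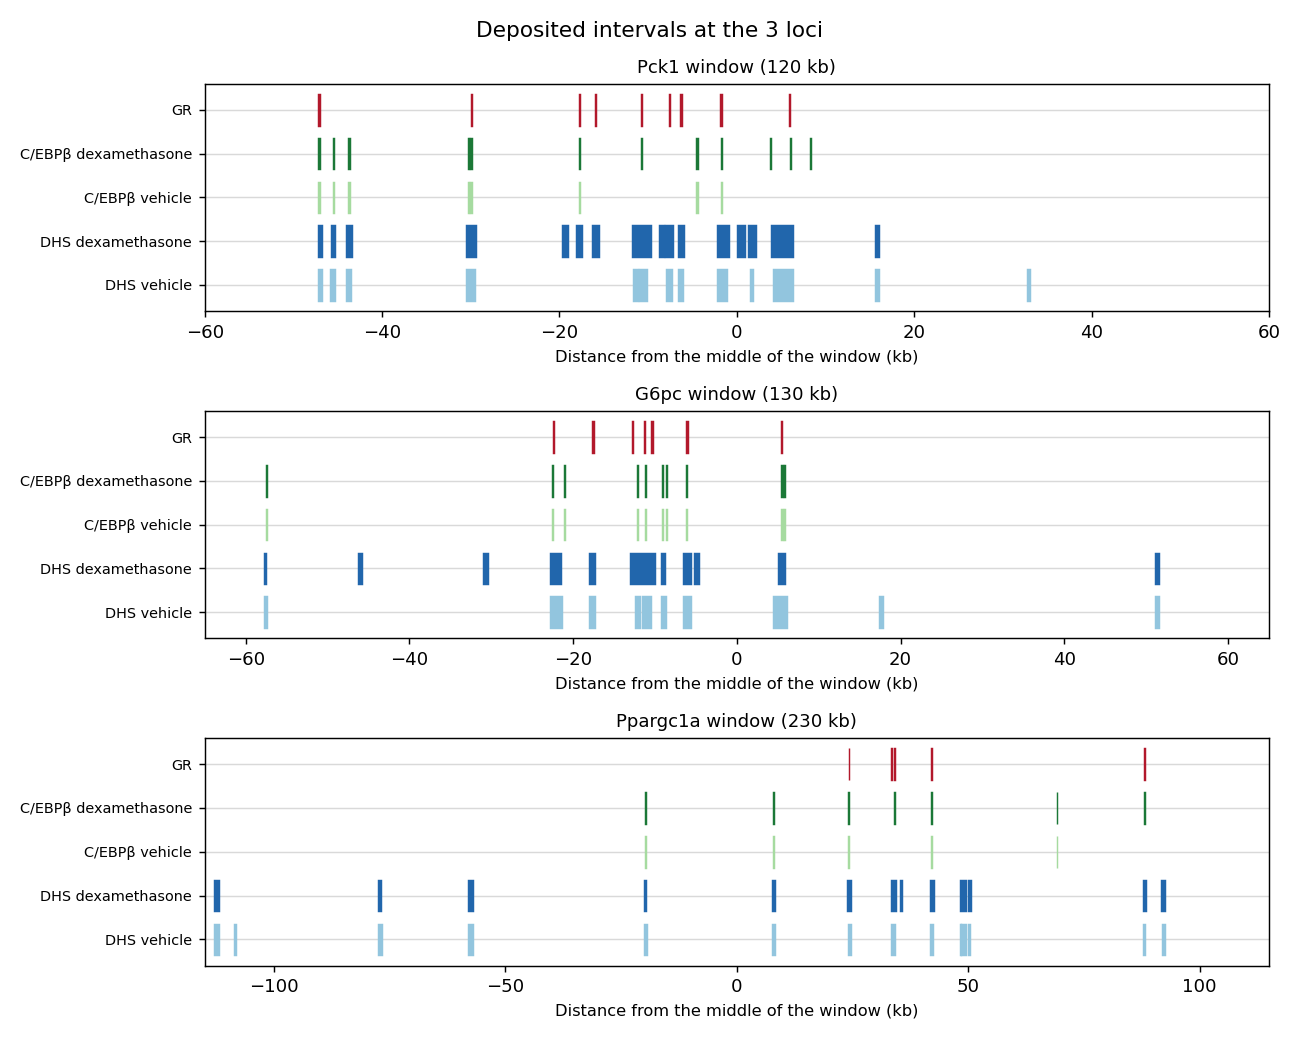
Intervals of the 5 lists (rows) at Pck1, G6pc and Ppargc1a, drawn to scale along the distance from the middle of each window in kb. Pck1 shows 5 dexamethasone DHS with none below them in the vehicle row, G6pc shows 1 wide dexamethasone DHS over 2 vehicle DHS, and the GR peaks of Ppargc1a all lie right of the middle.

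Most GR peaks of the loci lay in chromatin that was also accessible in vehicle livers. Of the 21, 17 overlapped a vehicle DHS by at least 1 bp (81.0%), where the background over all 11666 GR peaks was 79.2%. Another 2, both at Pck1, lay in a DHS of the dexamethasone list that shared no base with a vehicle DHS (dex-only DHS, background 15.6%). The remaining 2, both at G6pc, lay in a dexamethasone DHS that reached beyond the vehicle interval it shared (background 1.98%), and 0 lay outside DHS (background 3.26%). C/EBPβ was found at 12 of the 21 in the dexamethasone list and at 8 in the vehicle list (57.1% and 38.1%), with backgrounds of 62.0% and 50.4%. Of the 21, 4 had C/EBPβ in the dexamethasone list alone (background 11.9%) and 9 in neither list (background 37.6%). The share in vehicle DHS was near its background, and each of the other accessibility classes held between 0 and 2 peaks.

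The Pck1 window combined GR peaks in pre-existing, newly listed and C/EBPβ-gaining sites over 53.1 kb. The first GR peak, at chr2:172932803-172932953, lay in a DHS of 453 bp after dexamethasone and 468 bp after vehicle, and its centre was 11 bp from a C/EBPβ centre in both lists. The second, at chr2:172949970-172950120, was of the same kind, with DHS widths of 1154 and 1052 bp and C/EBPβ 24 bp away in both lists. The eighth, at chr2:172978136-172978286, lay in a DHS of 1363 bp after dexamethasone and 1146 bp after vehicle, with C/EBPβ 73 bp away in both lists. These 3 sites were thus listed as accessible and C/EBPβ-bound with and without hormone. At the loci, each C/EBPβ peak found in both lists had the same start and end in each. Equal distances in both lists are therefore not separate measurements.

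The next 2 GR peaks of Pck1 were in dex-only DHS, and they differed in C/EBPβ. The peak at chr2:172962163-172962313 lay in a DHS of 632 bp that was absent from the vehicle list, and the nearest vehicle DHS was 5980 bp away. A C/EBPβ peak (chr2:172962170-172962321) was nevertheless present there in both lists, 7.5 bp from the GR centre. Such a site, C/EBPβ-bound in the vehicle list with a DHS in the dexamethasone list alone, made up 1.23% of all GR peaks. The peak at chr2:172964012-172964162, 1849 bp further on, lay in a dex-only DHS of 761 bp and had no C/EBPβ peak of either list within 1691 bp.

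At 2 further Pck1 sites the DHS was in both lists and C/EBPβ was in the dexamethasone list alone. The GR peak at chr2:172969212-172969362 lay in a DHS of 2075 bp after dexamethasone, which spanned 2 vehicle DHS of 564 and 958 bp. Its centre was 24 bp from C/EBPβ in the dexamethasone list and 6204 bp from it in the vehicle list. The GR peak at chr2:172985882-172986032 lay in a DHS of 2511 bp after dexamethasone and 2233 bp after vehicle, with C/EBPβ 58 bp away in the dexamethasone list and 7673 bp away in the vehicle list. The last 2 GR peaks, at chr2:172972332-172972482 and chr2:172973624-172973774, lay 1292 bp apart in DHS of both lists, of 858 and 662 bp after dexamethasone and 676 and 555 bp after vehicle. They had no C/EBPβ peak, with the nearest centre 3084 and 1792 bp away.

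At G6pc the 10 C/EBPβ peaks were the same in both lists, and 2 of them overlapped GR. Its 7 GR peaks spanned 27.9 kb, and 2 of them had a C/EBPβ peak, the same 2 in both lists. The first of these, at chr11:101228848-101228998, lay in a DHS of 934 bp after dexamethasone and 899 bp after vehicle, with C/EBPβ 48.5 bp away. The other, at chr11:101240395-101240545, lay in a DHS of 925 bp after dexamethasone and 1780 bp after vehicle, with C/EBPβ 61.5 bp away. The overlap rule mattered here. The GR peaks at chr11:101212536-101212686 and chr11:101223642-101223792 lay in DHS of both lists, 3 and 6 bp from the edge of a C/EBPβ interval. With intervals counted as shared when within 500 bp, 5 of the 7 GR peaks had C/EBPβ in each list. The share over all GR peaks was not counted under this wider rule, and the backgrounds given for overlap do not apply to it.

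The widest DHS of the 3 loci lay at G6pc and held 3 GR peaks. It measured 3053 bp after dexamethasone (chr11:101221915-101224968) and covered 2 vehicle DHS of 609 and 1132 bp, which together made 1741 bp. Of the 63473 dexamethasone DHS of the genome, 37 were at least as wide (0.0583%), counting this one. Its middle GR peak lay in the wider vehicle DHS. The other GR peaks, at chr11:101222162-101222312 and chr11:101224570-101224720, lay 240 and 49 bp outside the nearest vehicle DHS. Both of its C/EBPβ peaks were in both lists and overlapped none of the 3 GR peaks. The remaining GR peak of the window, at chr11:101217352-101217502, lay in a DHS of 693 bp after dexamethasone and 763 bp after vehicle, 3477.5 bp from the nearest C/EBPβ centre. When positions within 500 bp counted as shared, both GR peaks beyond the vehicle interval counted as within vehicle DHS, so that class then held 0 peaks at G6pc.

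All 5 GR peaks of the Ppargc1a window lay in DHS of both lists, and 4 of them had a C/EBPβ peak after dexamethasone. That number depended on the overlap rule. It was 3 when the overlap had to reach 0.5 of the shorter interval, and 5 when positions within 500 bp counted as shared. The peaks at chr5:51919143-51919293 and chr5:51937018-51937168 had C/EBPβ in both lists, 10.5 and 7.5 bp away, in DHS of 761 and 854 bp after dexamethasone and 690 and 617 bp after vehicle. Those at chr5:51929029-51929179 and chr5:51983084-51983234 had it in the dexamethasone list alone. Their centres were 14 and 109 bp from C/EBPβ in the dexamethasone list, and 7996.5 and 18976 bp from it in the vehicle list. The fifth, at chr5:51928391-51928541, shared a DHS with its neighbour 638 bp away and had no C/EBPβ peak. That DHS measured 1217 bp after dexamethasone and 815 bp after vehicle, and was 1 of 2 dexamethasone DHS of the loci with more than 1 GR peak (2 of 40, background 1.03%).

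**Figure D3:**
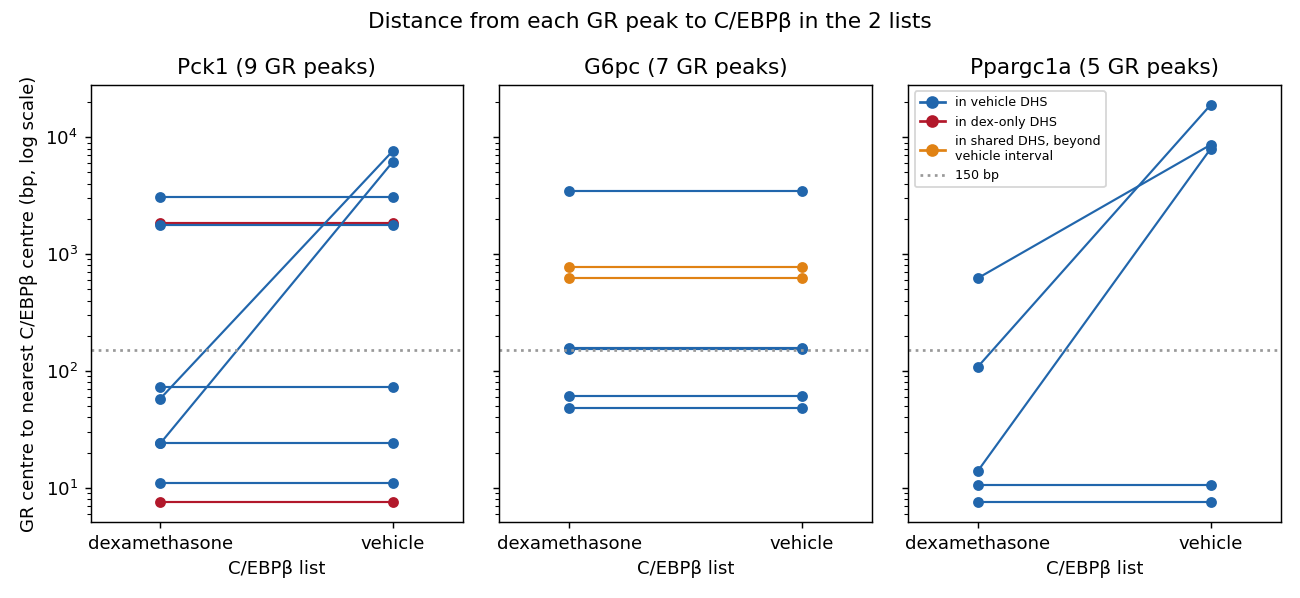
Distance in bp (log scale) from the centre of each GR peak to the nearest C/EBPβ centre in the dexamethasone list (left) and the vehicle list (right), with 1 line per GR peak, coloured by DHS class, and a dotted line at 150 bp, the width of a GR interval. All lines are flat at G6pc, while 2 at Pck1 and 3 at Ppargc1a climb to between 6204 and 18976 bp in the vehicle list. A line is flat wherever the nearest C/EBPβ peak is in both lists, because such peaks have the same positions in each.

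The share of C/EBPβ peaks absent from the vehicle list was near the background at these loci. All 23 C/EBPβ peaks of the vehicle list were also in the dexamethasone list (vehicle-only background 10.6%), and 6 of the 29 peaks of the dexamethasone list were absent from the vehicle list (background 20.0%). These were 4 of 12 at Pck1, 0 of 10 at G6pc and 2 of 7 at Ppargc1a. At least 4 dex-only C/EBPβ peaks per 120 kb were found in 0.578% of autosomal windows, and 2 or more per 230 kb in 11.5%. GR overlapped 4 of the 6 dex-only C/EBPβ peaks (background 27.5%) and 8 of the 23 found in both lists (background 28.9%). All 4 of the dex-only peaks with GR lay in DHS of both lists. Of all GR peaks, 79.2% lay in a vehicle DHS, and the share for dex-only C/EBPβ peaks with GR was not counted. Where GR and C/EBPβ overlapped at the loci, their centres were 7.5 to 109 bp apart (median 24 bp over 12 GR peaks). The medians were 24 bp at Pck1, 55 bp at G6pc and 12.2 bp at Ppargc1a, and 19 bp over all GR peaks with a dexamethasone C/EBPβ peak.

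DHS present in 1 list alone were more numerous in the dexamethasone list, as they were in the whole lists (15076 dexamethasone and 8488 vehicle ones). Of the 40 dexamethasone DHS, 9 were absent from the vehicle list (background 23.8%), 5 at Pck1, 3 at G6pc and 1 at Ppargc1a. When positions within 500 bp counted as shared, these numbers were 4, 2 and 1. The vehicle list had 1 DHS absent from the dexamethasone list at each locus, 3 of 37 in all (background 14.9%), of 386, 451 and 457 bp. Windows with at least as many dex-only DHS made up 1.57% for Pck1, 9.05% for G6pc and 53.7% for Ppargc1a. GR lay in 2 of the 9 dex-only DHS (background 11.9%), both at Pck1, and in 16 of the 31 shared ones (background 18.2%). The other 7 held neither GR nor C/EBPβ, near the share of 80.1% among dex-only DHS in the whole list. Among shared DHS the number was 9 of 31 (background 55.5%), and among all dexamethasone DHS of the loci 16 of 40 (background 61.4%). The Pck1 dex-only DHS without either factor lay at chr2:172960305-172961001, chr2:172971267-172971802 and chr2:172979975-172980890, interspersed among the GR-bound sites. The one at chr2:172971267-172971802 lay within 500 bp of a vehicle DHS (chr2:172972059-172972735).

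Width is the one measure of a DHS that the positions give, and it was compared for pairs matched one to one between the lists, 28 at the 3 loci. The numbers per locus are small, and differences between the loci were not tested. At Pck1, 5 of 6 DHS with GR were wider, with log2 ratios of dexamethasone over vehicle width between -0.05 and 0.34 (median 0.21). At Ppargc1a 4 of 4 were wider, between 0.14 and 0.58 (median 0.36). At G6pc 2 of 4 were wider, between -0.94 and 0.06 (median -0.06), and the wide DHS with 3 GR peaks was not among them because it covered 2 vehicle DHS. Over the loci 11 of 14 DHS with GR were wider after dexamethasone (background 70.8%), with a median of 0.16 against 0.12 over all matched DHS with GR. Of the matched DHS without GR 6 of 14 were wider (background 46.7%). Together 17 of the 28 were wider (background 51.1%). At G6pc the direction depended on the matching: 3 of the 7 matched DHS, with and without GR, were wider (42.9%, median log2 ratio -0.14), but 55.6% of the 9 overlapping pairs were wider when every pair was counted (median 0.01). The largest ratio among the 28 belonged to a DHS with neither GR nor C/EBPβ at Pck1, chr2:172981272-172982121, which measured 849 bp after dexamethasone and 384 bp after vehicle (log2 ratio 1.14).

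**Figure D4:**
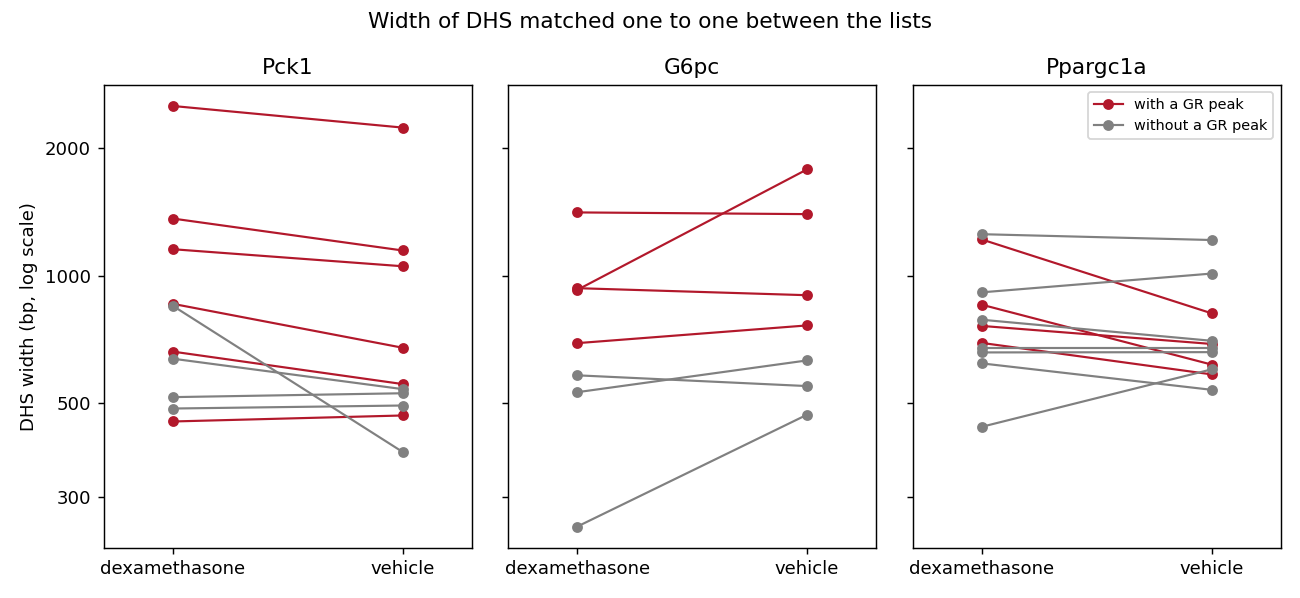
Width in bp (log scale) of DHS matched one to one between the dexamethasone list (left) and the vehicle list (right) at Pck1 (10 DHS), G6pc (7) and Ppargc1a (11), with red lines for DHS with a GR peak and grey for those without. All 4 red lines at Ppargc1a and 5 of 6 at Pck1 are higher on the dexamethasone side, while a G6pc DHS with GR measured 925 bp after dexamethasone and 1780 bp after vehicle.

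A single dexamethasone DHS that covered more than 1 vehicle DHS occurred once at each locus, 3 of 40 in all (background 2.14%). Those of Pck1 (2075 bp) and G6pc (3053 bp) held GR and covered vehicle DHS separated by a short gap. The gap ran from 172968857 to 172968916 on chr2 at Pck1, and from 101223161 to 101223389 on chr11 at G6pc. Whether the vehicle DHS on its 2 sides were separate sites cannot be told from positions alone. The one at Ppargc1a (1213 bp) held neither factor. Its vehicle counterparts were an interval of 1202 bp and one of 150 bp. These already overlapped each other in the vehicle list, so no gap was covered.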

How the data were processed

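The data are 5 interval lists from mouse liver (build mm9) of a series of 32 samples in 16 groups. The submitters' processing notes name CASAVA 1.8 and mm9. The sources used here give no aligner, no peak caller or threshold, and no word on pooled samples. The values deposited by the authors are positions (chromosome, start, end, identifier), and other measures were derived from these. The labels do not say whether counting starts at 0 or 1. Ends were taken as exclusive, and coordinates are shown unchanged. GR intervals had a fixed width of 150 bp. The C/EBPβ lists share identifiers, which decided whether a peak was in both. At the loci, peaks in both lists also had identical starts and ends. The dexamethasone DHS list had 3 duplicate rows, 0 of them at the loci. No column of per-sample values was left unused. The RNA polymerase II and input samples have no list of their own, and no list is named for the adenovirus samples. Which samples the GR list drew on is not stated.

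Intervals were assigned to a locus by their centre and called shared with an overlap of at least 1 bp. Counts were set beside those in adjoining autosomal windows of equal size. No test was run, since there is 1 list per assay and condition. Backgrounds are shares of the whole list. Every GR peak of the windows was named. The loci and the motifs were chosen with earlier results of these data known. Counting was tested on 600 simulated windows, and overlaps of GR with 4 lists equalled those of bedtools 2.31.1. The software was matplotlib 3.10.9, pandas 2.3.3, scipy 1.17.1 and numpy 2.4.6 in Python 3.11.15. Alternatives changed the windows, the overlap rule, the DHS used and the C/EBPβ list.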

Additional observations from a re-analysis of the deposited data

How the results depend on the processing

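No paired analysis was possible because each assay and condition has 1 list with no replicate column, and no sample could be left out for the same reason. Of 201 alternative values, 170 stayed within 1.5 times the reported count or within the 95% Wilson interval of the reported share, 30 moved and 1 changed direction. This was DHS width at G6pc: counting every overlapping pair adds the wide DHS against both vehicle DHS it covers, and 55.6% of 9 pairs were then wider after dexamethasone (median log2 ratio 0.01), against 42.9% of 7 (median -0.14). In windows with at least 1 vehicle DHS the share of windows with at least as many intervals was higher in all 15 cases: for GR 0.652% (Pck1), 2.04% (G6pc) and 10.1% (Ppargc1a), for dexamethasone and vehicle C/EBPβ 0.805% and 2.91%, 2.27% and 1.37%, and 16.9% and 23.5%, and for dexamethasone and vehicle DHS 1.71% and 3.42%, 12.1% and 12.1%, and 22.2% and 15.1%. This setting leaves out windows without a vehicle DHS, which raises the share by construction. With the middle 0.5 of each window the GR shares were 0.117%, 0.239% and 4.17%. Tiles moved by 0.5 of a window gave 1.10% for GR at G6pc. Without DHS of the 2 exact widths that recur in the lists the shares were 7.04% for dexamethasone DHS at G6pc, and 15.3% and 12.5% for dexamethasone and vehicle DHS at Ppargc1a. Within 500 bp, 5 GR peaks of G6pc had dexamethasone C/EBPβ, 5 had vehicle C/EBPβ, and 0 lay beyond the vehicle interval. No background was counted under that rule. By the distance between edges, 4 GR peaks of G6pc lay within 100 bp of C/EBPβ, against 2 by centres. The 170 include all 30 values with any overlap with the window, where the number of intervals at each locus did not change. Shares of wider DHS were judged against broad Wilson intervals, such as 39.7% to 89.2% at Pck1 and 15.8% to 75.0% at G6pc. Staying the same says little in these cases. The 170 also include counts of 0 that stayed 0, and the 3 counts made with the vehicle C/EBPβ list, which is another condition. There the number within 100 bp went from 6 to 4 at Pck1 and from 3 to 2 at Ppargc1a, and stayed 2 at G6pc. The median distance went from 58 to 1792 bp at Pck1 and from 14 to 7996.5 bp at Ppargc1a, and stayed 158.5 bp at G6pc. With only DHS above the median width of their list, 1 GR peak of Pck1 lay in no DHS, 0 DHS of Pck1 were vehicle-only, 1 GR peak of Ppargc1a lay in a dex-only DHS and 2 DHS of Ppargc1a were dex-only. This setting drops narrower DHS, which makes such changes by construction. Unknown depth limits every statement that an interval was absent from a list.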

Other observations

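A few C/EBPβ peaks of the loci lay outside accessible chromatin as listed. Of the 29 dexamethasone C/EBPβ peaks, 6 overlapped no DHS of either list (background 11.3%), 3 at Pck1, 2 at G6pc and 1 at Ppargc1a. A GR peak overlapped 0 of these 6, but 0 of the 21 GR peaks of the loci lay outside DHS. Little room was thus left for such an overlap, and its share over the whole list was not counted. At Pck1 the peak at chr2:172975416-172975566 was in both lists, 1406 bp from the nearest dexamethasone DHS and 1477 bp from the nearest vehicle DHS. The peaks at chr2:172983718-172983868 and chr2:172988249-172988399 were in the dexamethasone list alone, 5 and 1865 bp from the nearest dexamethasone DHS. The 2 peaks of G6pc were in both lists and lay 317 and 146 bp from a dexamethasone DHS, and 268 and 35 bp from a vehicle DHS. The peak of Ppargc1a at chr5:51964101-51964265, in both lists, was the most remote, 18413 bp from the nearest dexamethasone DHS and 18467 bp from the nearest vehicle DHS.

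Of the 9 shared dexamethasone DHS that held neither GR nor C/EBPβ, 6 were among the 12 shared DHS of Ppargc1a, 2 among the 11 of Pck1 and 1 among the 8 of G6pc. The background over all shared dexamethasone DHS was 55.5%. Ppargc1a was thus near the background, and Pck1 and G6pc were below it. These shares are not separate from the density of GR and C/EBPβ peaks given above, because the same peaks define them. The difference between the loci was not tested.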
